A study of Mus musculus with 20 samples.

Results

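The genes described here encode the subunits, activators, inhibitor and assembly chaperones of the proteasome. They were chosen by name: rows of the count table whose symbol begins with Psma to Psmg followed by a number, with a mean of at least 1 CPM (counts scaled to library size) over the 20 libraries. Of 25965 rows in the table, 48 matched the name and 46 met the minimum. Of these 46 members, 14 form the core particle, 17 the regulatory particle, and 15 are immunoproteasome subunits, alternative activators, the inhibitor or chaperones. Just inside the minimum lay Psmb9 at 1.017 CPM. Just outside it lay Psma8, a subunit of the testis core particle, at 0.26 CPM and Psmb11, a subunit of the thymic core particle, at 0.12 CPM.

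The tissue was frontal cortex of C57BL/6 mice at 5 months of age. The libraries cover 3 genotypes of a knock-in allele of Tardbp: 8 libraries from homozygotes (Q331K/Q331K), 6 from heterozygotes (Q331K/+) and 6 from wild type (+/+). Tardbp encodes the RNA-binding protein TDP-43, and Q331K is a single amino acid change in that protein. The change sits in the mouse's own gene, so the allele is expressed wherever Tardbp is, in place of a normal copy. The labels do not say whether libraries came from separate animals, so the spread behind each p-value is that between libraries and may be partly technical.

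The proteasome degrades proteins that carry chains of ubiquitin, and long-lived cells such as neurons rely on it to clear damaged and aggregation-prone proteins. Its core particle is a barrel of stacked rings, with alpha subunits at the gates and beta subunits, some of them proteases, inside. The regulatory particle caps the barrel. Its base holds a ring of ATPases that unfold substrates and open the gate, and its lid removes the ubiquitin chain. Immune cells and cells exposed to interferon swap the proteolytic subunits for immunoproteasome versions. When proteasome activity drops, the transcription factor Nfe2l1 is released from the endoplasmic reticulum and raises many subunit genes together through antioxidant response elements.

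Some promoter letters were more frequent in the regulatory than in the core particle genes. The matches are shown as a description of the promoters, and any link between them and expression was not tested. Promoter windows from RefSeq (GRCm38.p6) ran from 250 bases before to 50 bases after each annotated start, and 39 of 46 members had one. Psmb1, Psmb2, Psmb7, Psmc3, Psmd3, Psmd7 and Psmg2 had none. The letters CCGGAAG, on either strand, are a spelling of sites bound by ETS factors, and other spellings were not counted. CCGGAAG occurred in 9 of 14 regulatory particle promoters (64.3%) and in 1 of 11 core particle promoters (9.09%). Among promoters of tested genes, 1887 of 11315 (16.7%) held it. Psma6, the single core particle gene with a match, had 3 in the second of its annotated windows, at -132, -2 and 18 from the start, and the match at -2 is shown. The antioxidant response element TGACNNNGC occurred in 6 of 39 members (15.4%), close to its 16.9% share among all tested genes. The stretches below run 5′ to 3′ on the strand named, with the matched letters in capitals. The first 10 lines show CCGGAAG in the 9 regulatory particle genes and in Psma6.
Psmc1, chr12:100110164-100110190, minus strand: atcgccaccgCCGGAAGtgcatccacc
Psmc2, chr5:21786713-21786739, minus strand: ctcttccccaCCGGAAGtagctccgcg
Psmc6, chr14:45329714-45329740, plus strand: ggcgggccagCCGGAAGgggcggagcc
Psmd2, chr16:20651616-20651642, minus strand: gtcctccagaCCGGAAGcgccctgcgg
Psmd4, chr3:95042723-95042749, minus strand: tacagctgttCCGGAAGctgctgcgaa
Psmd6, chr14:14120974-14121000, minus strand: agagacgcgaCCGGAAGtcagactggc
Psmd11, chr11:80428594-80428620, minus strand: aaacacacacCCGGAAGacccgccctc
Psmd12, chr11:107479501-107479527, minus strand: gtcactcgcaCCGGAAGtcgcccgctc
Psmd13, chr7:140882378-140882404, plus strand: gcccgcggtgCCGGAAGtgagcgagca
Psma6, chr12:55398813-55398839, plus strand: cgccggtgctCCGGAAGcagtagccat
The next lines show the antioxidant response element in the 2 core and 2 regulatory particle genes that hold it, Psmb5 and Psmb6 among them, which encode proteolytic subunits.
Psmb5, chr14:54618024-54618052, minus strand: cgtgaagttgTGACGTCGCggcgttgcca
Psmb6, chr11:70525338-70525366, plus strand: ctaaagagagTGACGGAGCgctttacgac
Psmc6, chr14:45329587-45329615, minus strand: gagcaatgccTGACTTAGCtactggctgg
Psmd12, chr11:107479278-107479299, minus strand: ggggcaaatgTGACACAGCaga

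Positions are counted from the annotated start to the matched CCGGAAG base farthest upstream in the direction of the gene. Where the match is on the strand opposite to the gene, this is the last of the letters as printed. That base lay at -6 in Psmd13, -11 in Psmd11, -17 in Psmd12, -26 in Psmd2 and -28 in Psmc1. It lay at -45 in Psmd6, -100 in Psmc6 and -125 in Psmd4. Psmc2 had a match at -24, shown above, and another at -84 in a different annotated window. The CCAAT box, CCAAT on either strand, occurred in 6 of 11 core particle promoters (54.5%) and 4 of 14 regulatory particle promoters (28.6%), against 42.5% of tested genes. The consensus letters of the interferon-stimulated response element, on either strand, occurred in 5 of 39 members (12.8%), Psmb3, Psmd4, Psmd9, Psme1 and Psmg4, against 3.63% of tested genes. They occurred in 0 of the 3 immunoproteasome promoters. These matches describe letters in a window and were not measured as binding.

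Library totals ran from 61282647 to 111440766 counts. Tardbp, the edited gene, averaged 245 ± 10.5 CPM in homozygotes, 230 ± 7.58 CPM in heterozygotes and 218 ± 5.53 CPM in wild type (SD, n = 8, 6 and 6). It rose in homozygotes by a log2 change of 0.17 (adjusted p = 0.00372 in edgeR). This call was lost with tissue scores as covariates (adjusted p = 0.0524 in edgeR). The tissue scores were those of ependymal, olfactory bulb and meningeal fibroblast markers. Tardbp overlaps Masp2 on the opposite strand. All 10 cortical neuron markers were present, with summed levels of 12440 to 13280 CPM in homozygotes, 12780 to 13550 CPM in heterozygotes and 12950 to 13980 CPM in wild type. Ependymal markers, genes of the ciliated cells that line the ventricles, summed to 37.6 to 60.0 CPM in homozygotes, 38.3 to 48.1 CPM in heterozygotes and 36.1 to 40.2 CPM in wild type. Of 12 tested, 12 had estimates above 0 in homozygotes against wild type, where 49.4% of all tested genes were below 0. Of the 12, 1 was called, where 1.56% of all tested genes were. None of the 13 found in the table was at 0 in every library. Olfactory bulb markers summed to 86.9, 122 and 138 CPM in homozygous replicates 2, 5 and 8, and to 33.2 to 51.6 CPM in the other 5, against 34.0 to 40.6 CPM in heterozygotes and 29.5 to 56.2 CPM in wild type. Striatal markers reached 508 CPM in 1 heterozygous library. Of 8 meningeal fibroblast markers, 8 had estimates above 0 in homozygotes against wild type, with a median log2 change of 0.31. Of 6 choroid plexus markers tested, 6 had estimates above 0, with a median of 0.55. In both lists 0 were called.

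Proteasome genes were broadly expressed in frontal cortex, and the levels of subunits that sit in the complex in equal number spanned a wide range. Levels between genes are given as CPM per kilobase of exon, with all annotated exons of a gene merged (GENCODE M21), as means over the 20 libraries. In the core particle they ran from 13.5 CPM per kb for Psma3, an alpha subunit, to 49.3 CPM per kb for Psmb5, which carries the chymotrypsin-like protease site, a 3.67-fold range. In the regulatory particle they ran from 9.11 CPM per kb for the lid scaffold subunit Psmd11 to 96.5 CPM per kb for the ATPase Psmc5, a 10.6-fold range. Medians were 23.6 CPM per kb for the core particle and 22.5 CPM per kb for the regulatory particle.

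The lengths used bear on this order and on the width of the ranges. With exons of the basic annotation set alone, regulatory particle levels ran from 19.6 CPM per kb for Psmd11 to 102 CPM per kb for Psmc5. That is a narrower range than with all exons merged. Core particle levels ran from 18.4 CPM per kb for Psma3 to 88.8 CPM per kb for Psmb6, another proteolytic subunit, a wider range. With all exons merged, levels outside both particles were lower, with a median of 5.13 CPM per kb over 15 genes. Psme3, the nuclear activator, was the highest of these at 34.5 CPM per kb. Psmb8 and Psmb9 were the lowest members of all, at 0.71 and 0.28 CPM per kb.

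**Figure D1:**
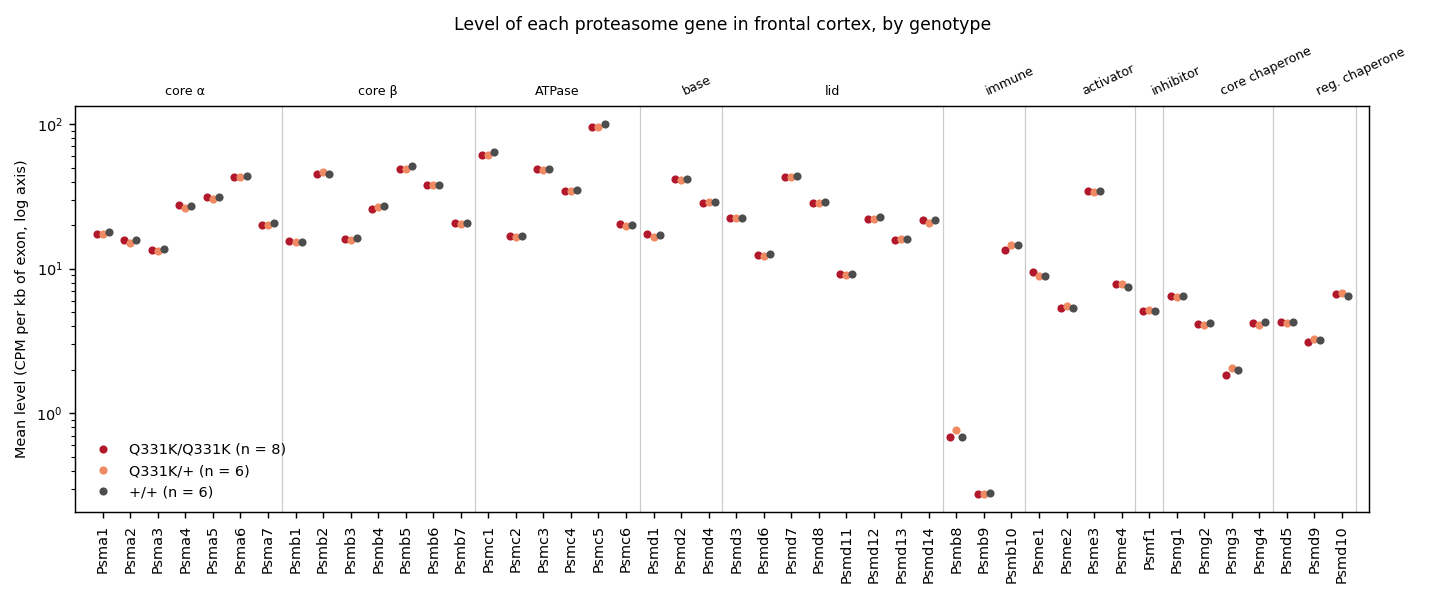
Mean level of each of the 46 members in CPM per kb of merged exon (log axis), grouped by role, with homozygotes, heterozygotes and wild type side by side for each gene. The genotypes lie close together at every gene, Psmc5 is the highest at 96.5 CPM per kb over all libraries, and Psmb8 and Psmb9 are the lowest.

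No proteasome gene passed the test in any comparison. The test was edgeR's quasi-likelihood test with Benjamini-Hochberg adjustment over 16690 genes, called at an adjusted p under 0.05. In homozygotes against wild type 0 of 46 members were called, where 1.56% of all tested genes were, and at an unadjusted p under 0.05 there were 3 members, Psmc5, Psmb10 and Psmc1, against 16.1% of all genes. In heterozygotes against wild type 0 were called, where 0% of all genes were, and 1 member, Psmc5, lay under an unadjusted 0.05 against 3.19% of all genes. DESeq2 called 1 member, Psmc5, in homozygotes against wild type, where it called 638 of the 16690 genes. In heterozygotes against wild type it called 0 members and 2 genes in all. With limma voom 0 members were called in both. The comparisons share the wild-type libraries.

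Intervals of the subunits of the complex itself are set against a limit of ±0.2. The share of all tested genes inside this limit was not computed. Among members, those with the fewest reads had the widest intervals, so the counts below are not shown to be particular to the particle genes. In the fit by genotype, each of the 14 core and 17 regulatory particle genes had a 95% interval inside ±0.2 on the log2 scale, a 1.15-fold difference, in both comparisons with wild type. With tissue scores as covariates, the bounds of Psmb4 and Psmb5 in homozygotes and of Psmb5 in heterozygotes passed -0.2, with a lowest bound of -0.27 in homozygotes. The bounds of Psmb4 and Psmb5 also passed it in homozygotes when the high-ependymal libraries were left out. Without wild-type replicate 4 or 6, Psmb4 passed it in homozygotes and Psmb5 in heterozygotes. The 17 regulatory particle genes stayed inside ±0.2 in the 28 other edgeR fits. These intervals are per gene and not adjusted for the number of genes. For homozygotes against wild type the bounds ran from -0.18 to 0.09 in the core particle and from -0.12 to 0.11 in the regulatory particle. For heterozygotes against wild type they ran from -0.18 to 0.11 and from -0.16 to 0.08 in the same order. Members whose interval passed ±0.2 in homozygotes were Psmb8, Psmb9, Psmb10, Psmg3 and Psmg4, all outside both particles.

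**Figure D2:**
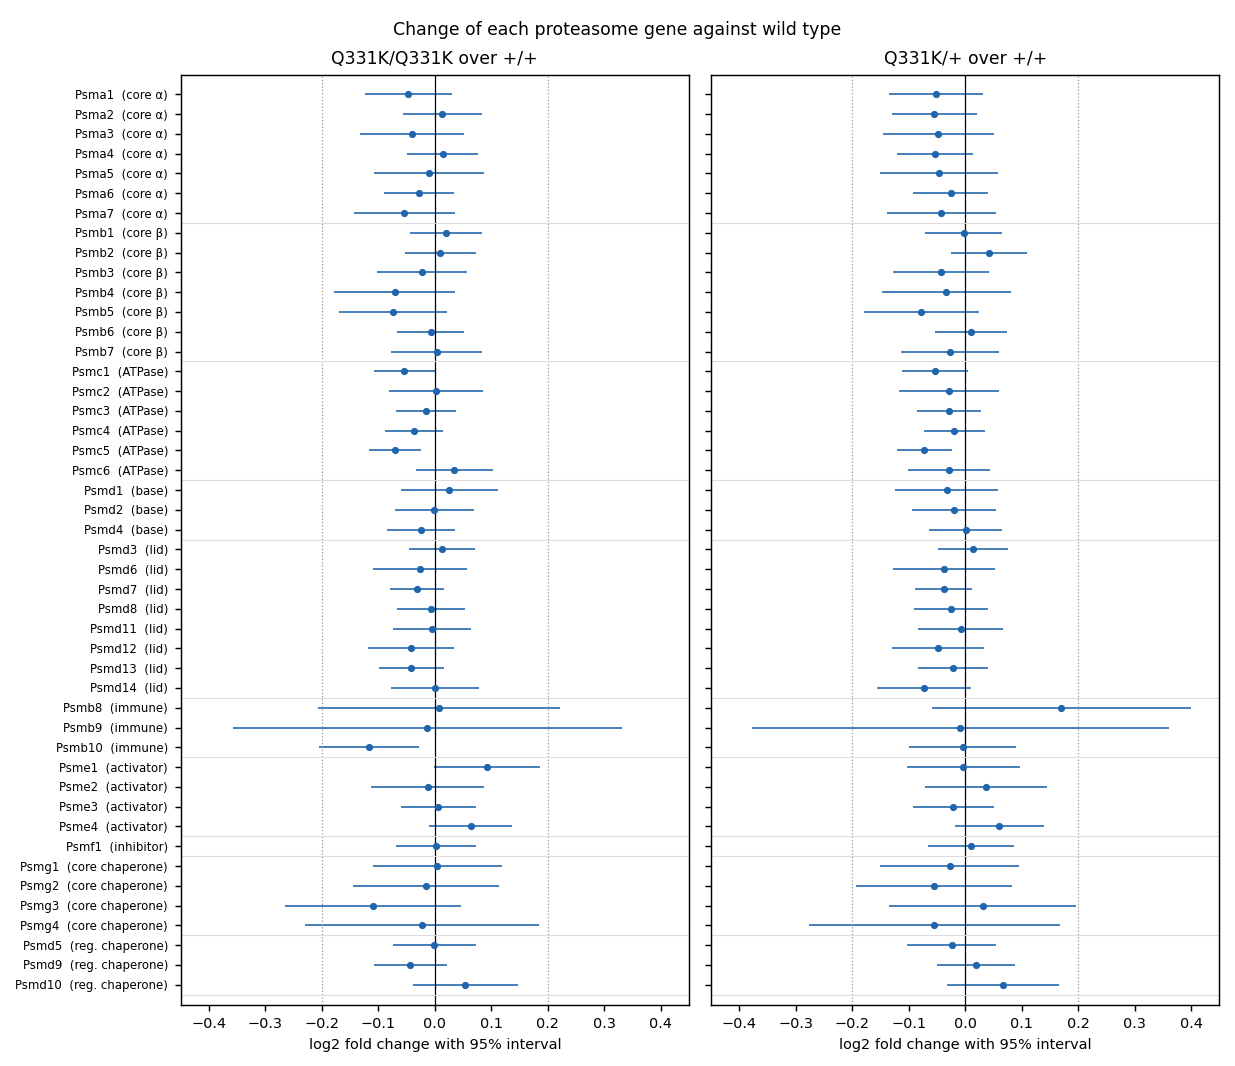
Log2 fold change of each member with its 95% interval derived from the edgeR test. Homozygotes over wild type are on the left and heterozygotes over wild type on the right, in order of role. Dotted lines mark ±0.2. Every core and regulatory particle interval lies inside them in both panels, and the Psmb8 and Psmb9 intervals are the widest.

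The alpha subunits form the outer rings of the core and gate its channel. In homozygotes against wild type 5 of 7 had estimates below 0, as had 49.4% of all tested genes, from -0.05 for Psma7 to 0.014 for Psma4, and 0 passed the test. In heterozygotes against wild type 7 of 7 were below 0, where 48.8% of all tested genes were, in a narrow band from -0.05 for Psma2 to -0.026 for Psma6, again with 0 called. Psma4 had 62.3, 64.8 and 68.4 CPM (lowest, median and highest) in homozygotes, 59.0, 61.7 and 65.7 CPM in heterozygotes and 62.3, 63.8 and 67.7 CPM in wild type. The 3 ranges overlapped. Psma3, the alpha subunit with the lowest level per kb, averaged 52.0 ± 2.91 CPM in homozygotes, 51.8 ± 3.32 CPM in heterozygotes and 53.5 ± 3.41 CPM in wild type (SD, n = 8, 6 and 6).

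Beta subunits form the inner rings, and Psmb6, Psmb7 and Psmb5 hold the caspase-like, trypsin-like and chymotrypsin-like protease sites. Psmb5 (GRCm38 chromosome 14, 54614120 to 54617995, minus strand) contains Mir686 on the same strand. It had 39.2, 43.0 and 48.6 CPM in homozygotes, 40.0, 44.1 and 45.7 CPM in heterozygotes, and 42.2, 45.9 and 49.4 CPM in wild type (lowest, median and highest). The ranges overlapped widely, and the log2 change in homozygotes was -0.07 (SE 0.046, adjusted p = 0.457 in edgeR). It was -0.14 with tissue scores as covariates (adjusted p = 0.262) and -0.12 with the high-ependymal libraries left out (adjusted p = 0.245). Psmb6 had 64.9, 70.8 and 73.6 CPM in homozygotes, 69.8, 71.5 and 73.0 CPM in heterozygotes and 68.6, 69.7 and 75.5 CPM in wild type. Its log2 change in homozygotes was -0.0077 with an interval of -0.07 to 0.05.

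Psmb7 was as close to wild type, at 71.2 ± 2.77 CPM in homozygotes, 69.8 ± 5.13 CPM in heterozygotes and 71.1 ± 3.34 CPM in wild type (SD, n = 8, 6 and 6), with a log2 change in homozygotes of 0.0033 and an interval of -0.08 to 0.08. Psmb7 shares exon sequence with Nek6 on the opposite strand. Among the structural beta subunits, Psmb4 had the lowest log2 estimate in homozygotes, -0.07, and Psmb2 had the highest in heterozygotes, 0.04. Over all 14 core particle genes, 9 estimates were below 0 in homozygotes and 12 in heterozygotes. The core particle median in homozygotes was -0.017, which flipped to 0.019 with scaling by library totals alone and to 0.0041 without wild-type replicate 1. The heterozygous median was -0.043, and it stayed below 0 under every alternative scaling and with each library left out. The medians over all tested genes were 0.0013 and 0.0017.

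Among the ATPases of the base, Psmc5 had the smallest p of all members in both comparisons with wild type. Psmc5, one of the 6 ATPases that thread substrates into the core, is encoded on the plus strand of chromosome 11, 106256154 to 106263120. It had 128.5, 132.4 and 137.7 CPM in homozygotes, 128.7, 132.3 and 134.8 CPM in heterozygotes and 137.9, 138.9 and 141.1 CPM in wild type (lowest, median and highest). In TMM-scaled CPM, every wild-type library thus lay above all 14 libraries with a Q331K allele. The gap to the highest homozygous library was small. TMM factors averaged 0.987 in wild type, 0.999 in heterozygotes and 1.011 in homozygotes. With CPM by library totals alone, the wild-type range overlapped both of the others. On the TMM scale, Psmc5 was the 1 member of 46 whose ranges did not overlap in homozygotes against wild type. There 0.515% of all genes were lower in that way. It was also the 1 member in heterozygotes against wild type, where 0.108% were. The same 6 wild-type libraries enter both comparisons.

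The Psmc5 difference was small, and edgeR did not call it. The log2 change was -0.07 with a standard error of 0.022 in homozygotes (adjusted p = 0.108) and -0.07 with a standard error of 0.024 in heterozygotes (adjusted p = 1). DESeq2 gave -0.07 and an adjusted p of 0.0223 in homozygotes. Over the 30 alternatives the homozygous change ran from -0.08 to -0.035 and the adjusted p from 0.0223 to 0.495. Leaving out the 4 libraries with high ependymal scores gave -0.06 (adjusted p = 0.249) and tissue scores as covariates gave -0.06 (adjusted p = 0.407). In bulk tissue, fewer cells of a type and less RNA per cell cannot be told apart.

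Psmc1, an ATPase whose tail docks into the alpha ring and helps open the gate, had 115.6, 118.3 and 123.3 CPM in homozygotes, 113.1, 118.9 and 122.8 CPM in heterozygotes and 117.6, 122.9 and 128.7 CPM in wild type (lowest, median and highest). The ranges overlapped. Its log2 change was -0.05 in both comparisons, with standard errors of 0.026 in homozygotes (edgeR adjusted p = 0.31) and 0.028 in heterozygotes (adjusted p = 1). Psmc6 went the other way in homozygotes, with a log2 estimate of 0.035, and Psmc2, Psmc3 and Psmc4 had estimates of 0.0014, -0.015 and -0.037. In heterozygotes all 6 ATPase estimates were below 0, from -0.07 to -0.019. The summed ATPase level was 608 ± 12.6 CPM in homozygotes, 603 ± 15.9 CPM in heterozygotes and 621 ± 12.4 CPM in wild type (SD, n = 8, 6 and 6).

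**Figure D3:**
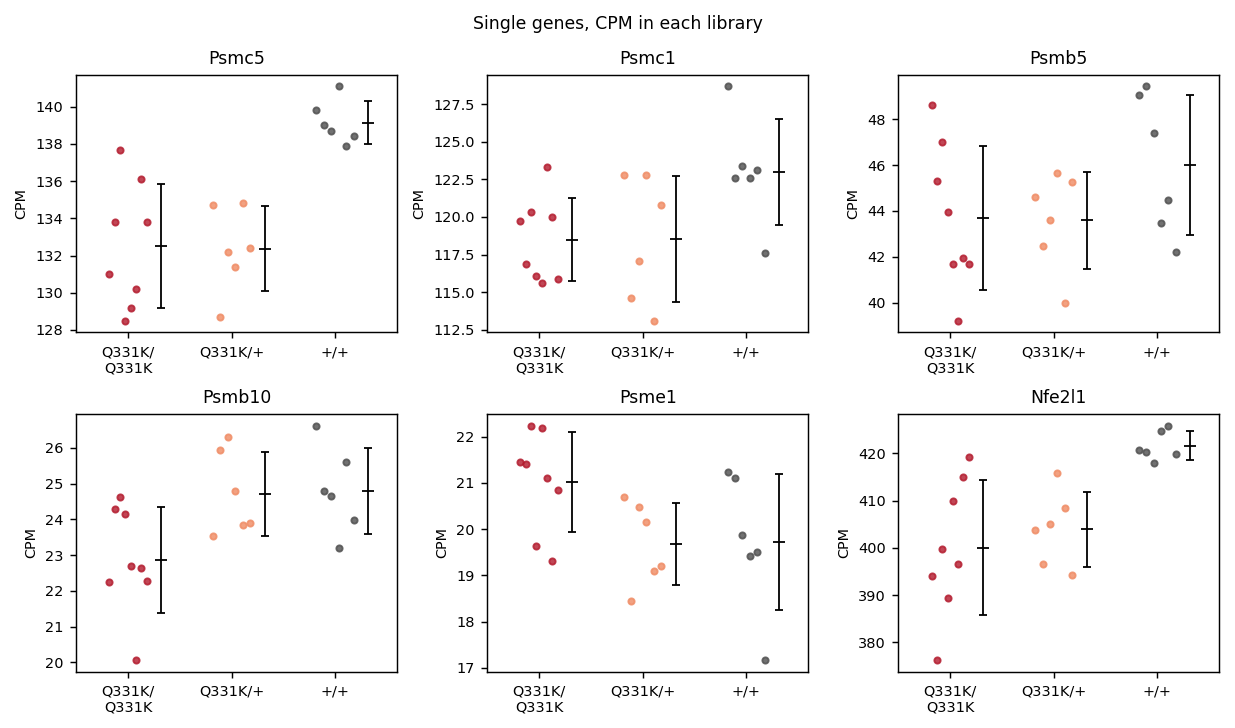
CPM in each library for Psmc5, Psmc1, Psmb5, Psmb10, Psme1 and the regulator Nfe2l1, with mean and SD beside the points of each genotype. Axes do not start at 0. In Psmc5 all 6 wild-type libraries lie above every library with a Q331K allele in TMM-scaled CPM. In the other members the genotypes overlap.

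The non-ATPase subunits of the base bind ubiquitin and its shuttle proteins, and they stayed near wild type. Psmd2, the docking platform for shuttle factors and the member with the most reads, averaged 168 ± 5.10 CPM in homozygotes, 166 ± 9.39 CPM in heterozygotes and 168 ± 7.48 CPM in wild type (SD, n = 8, 6 and 6). Psmd4, a ubiquitin receptor, and the scaffold Psmd1 had log2 estimates of -0.025 and 0.026 in homozygotes. Psmd1 shares exon sequence with Htr2b on the opposite strand and Gm21972 on the same strand.

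Of the 8 lid genes, 6 had estimates below 0 in homozygotes and 7 in heterozygotes, with 0 called in both. Psmd14, the deubiquitinase that cuts the chain from the substrate, had 59.0, 60.0 and 66.1 CPM in homozygotes, 53.4, 58.7 and 61.6 CPM in heterozygotes and 56.8, 62.3 and 64.4 CPM in wild type (lowest, median and highest). The ranges overlapped, and the heterozygous log2 change was -0.07 (SE 0.04, adjusted p = 1 in edgeR). The homozygous estimate for Psmd14 was 3.2e-05. Psmd7, the partner of Psmd14, had the smallest coefficient of variation of all members, 2.31% over the 20 libraries. Psmd11, which clamps the lid to the core and had the lowest level per kb of its particle, had a log2 change of -0.0048 in homozygotes with an interval of -0.07 to 0.06.

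Over the 17 regulatory particle genes, 12 estimates were below 0 in homozygotes and 15 in heterozygotes. The regulatory particle median was -0.015 in homozygotes, which flipped to 0.020 with scaling by library totals alone, and -0.029 in heterozygotes, which stayed below 0 under every alternative.

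The balance of core to regulatory particle transcripts did not separate the genotypes. Summed core particle levels were 780 ± 25.3 CPM in homozygotes, 774 ± 30.6 CPM in heterozygotes and 790 ± 32.9 CPM in wild type (SD, n = 8, 6 and 6). Summed regulatory particle levels were 1544 ± 32.2 CPM in homozygotes, 1529 ± 38.6 CPM in heterozygotes and 1562 ± 36.1 CPM in wild type. The ratio of these sums was 0.505 ± 0.0148 in homozygotes, 0.506 ± 0.0130 in heterozygotes and 0.506 ± 0.0097 in wild type, so the genotype means differed by less than 1 SD. These SDs include a difference between low and high replicate numbers of the labels, given under the closing observations, and numbers 7 and 8 occur in homozygotes alone. Over numbers 1 to 6, an alternative chosen after seeing the data, the homozygous ratio was 0.5095 ± 0.0144 (SD, n = 6). As a ratio of mean levels per kb, it was 0.850 ± 0.0236, 0.853 ± 0.0201 and 0.848 ± 0.0198 in homozygotes, heterozygotes and wild type.

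**Figure D4:**
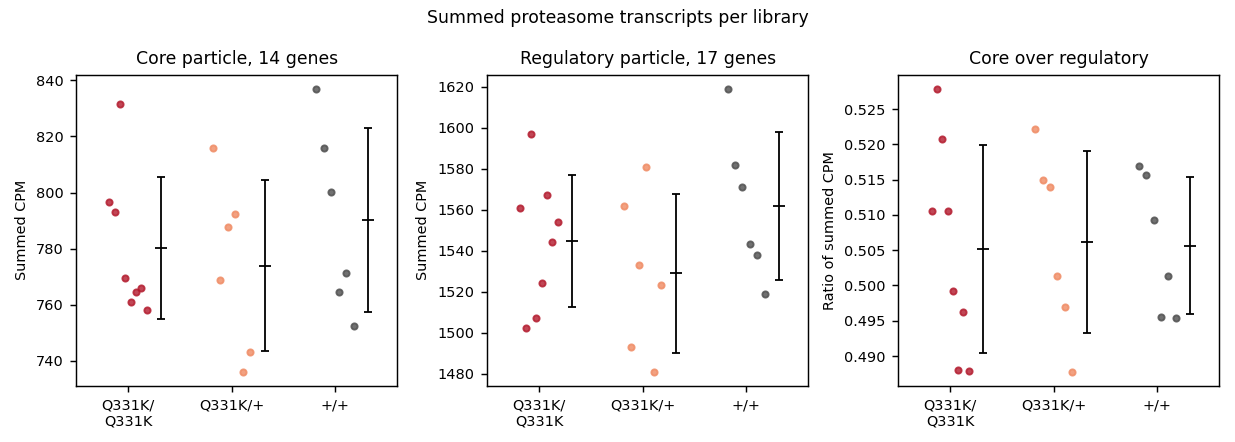
Summed CPM of the 14 core and 17 regulatory particle genes and their ratio in each library, with mean and SD by genotype. Axes do not start at 0. The ratio spans 0.488 to 0.528 in homozygotes, 0.488 to 0.522 in heterozygotes and 0.495 to 0.517 in wild type, and the 3 genotypes overlap in all panels.

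In some libraries nearly all subunit genes of a particle lay on the same side of their genotype mean. In heterozygous replicate 1, homozygous replicate 3 and wild-type replicate 1, 14 of 14 core particle genes lay above the mean of their own genotype. In wild-type replicates 4 and 6, 0 of 14 did. Of all tested genes, 47.1% to 51.8% lay above that mean in each of the 20 libraries. The other 15 libraries held 1 to 13 of 14. Regulatory particle genes followed only in part: 12, 16 and 15 of 17 were above their genotype mean in the first 3 libraries named, and 4 and 5 of 17 in wild-type replicates 4 and 6. Mitochondrial transcripts took 6.95%, 6.93% and 9.80% of counts in those first 3 libraries, and 7.24% and 11.5% in wild-type replicates 4 and 6. Heterozygous replicate 1 also had the highest striatal marker score of all libraries, 3.22. The particles also parted: heterozygous replicate 2 had 6 of 14 core and 1 of 17 regulatory particle genes above the mean, and homozygous replicate 8 had 1 of 14 and 8 of 17. Summed core particle levels ran from 769 to 837 CPM in the 9 libraries numbered 1 to 3 in the labels. They ran from 764 to 792 CPM in the 3 numbered 4 and from 736 to 771 CPM in the 8 numbered 5 to 8. The part of replicate number, mitochondrial share and striatal markers in the shared movement was not tested. The median coefficient of variation over the 20 libraries was 4.88% for core particle genes and 3.39% for regulatory particle genes, against 4.87% for the 5137 tested genes with a mean of 30 to 170 CPM.

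The immunoproteasome was a minor share of the proteolytic transcripts in every genotype. Psmb8, Psmb9 and Psmb10 replace Psmb5, Psmb6 and Psmb7 in immune cells and under interferon. Together they made up 12.38 ± 0.4004% of the CPM of all 6 proteolytic genes in homozygotes, 13.3 ± 0.693% in heterozygotes and 13.03 ± 0.309% in wild type (SD, n = 8, 6 and 6). Psmb10 supplied most of this, at 24.3% of its pair with Psmb7 in homozygotes, 26.2% in heterozygotes and 25.9% in wild type. Psmb8 was 5.06%, 5.64% and 4.82% of its pair with Psmb5 in homozygotes, heterozygotes and wild type. Psmb9 was 1.42%, 1.40% and 1.43% of its pair with Psmb6 in the same order. These shares are of CPM without correction for length.

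Psmb10 had the lowest log2 estimate of all members in homozygotes against wild type. Its locus is the minus strand of chromosome 8, 105935728 to 105938392. It had 20.1, 22.7 and 24.6 CPM in homozygotes, 23.5, 24.3 and 26.3 CPM in heterozygotes and 23.2, 24.7 and 26.6 CPM in wild type (lowest, median and highest). The ranges overlapped in every comparison. The log2 change was -0.12 with a standard error of 0.043 in homozygotes against wild type (edgeR adjusted p = 0.171) and -0.11 in homozygotes against heterozygotes (adjusted p = 0.356). It ran from -0.14 to -0.08 over the 30 alternatives for homozygotes against wild type, with adjusted p from 0.113 to 0.356.

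Psmb8 and Psmb9 had the widest intervals of all members. Psmb8 had 1.81, 2.41 and 2.59 CPM in homozygotes, 2.28, 2.50 and 3.04 CPM in heterozygotes and 1.82, 2.24 and 2.92 CPM in wild type. Its log2 changes of 0.0075 in homozygotes and 0.17 in heterozygotes had intervals of -0.21 to 0.22 and -0.06 to 0.40. Psmb9 averaged 1.013 ± 0.108 CPM in homozygotes, 1.015 ± 0.189 CPM in heterozygotes and 1.022 ± 0.327 CPM in wild type (SD, n = 8, 6 and 6), and its interval in homozygotes was -0.36 to 0.33. Psmb9 and Psmb8 lie 9.96 kb apart on chromosome 17 with Tap1, a peptide transporter gene, between them. Psmb9 and Tap1 share exon sequence on opposite strands, and reads of the pair cannot be told apart without strand. Microglial markers, 10 of 10 present, summed to 416 to 511 CPM in homozygotes, 445 to 517 CPM in heterozygotes and 449 to 495 CPM in wild type. Of the 10, 1 was called in homozygotes against wild type, where 1.56% of all tested genes were. This was Fcrls, which fell (adjusted p = 0.0141 in edgeR). The part of microglia in the immunoproteasome values was not tested.

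**Figure D5:**
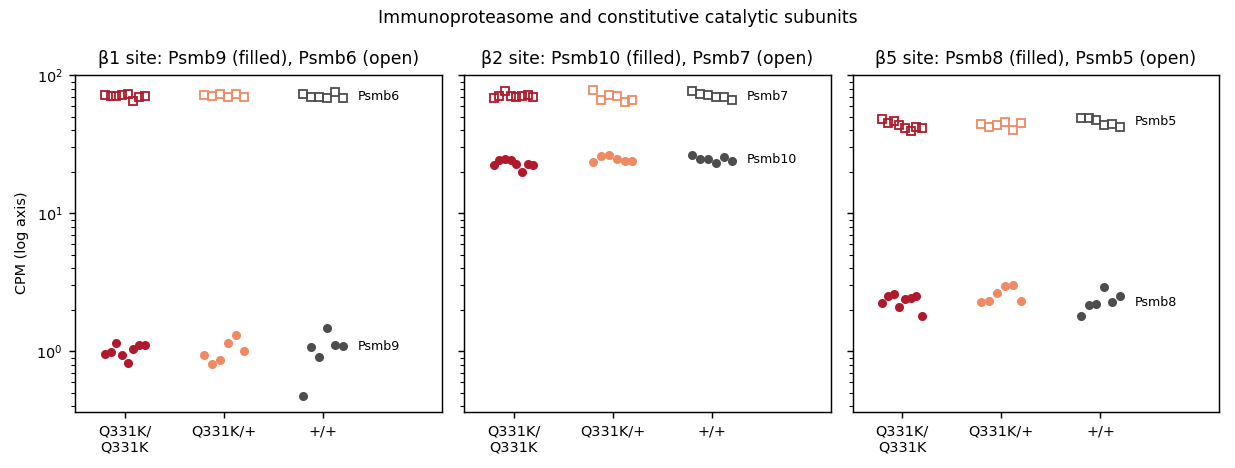
CPM (log axis) in each library for the 3 immunoproteasome genes (filled circles) and the constitutive genes they replace (open squares), by genotype. Psmb10 lies between 20.1 and 26.6 CPM, nearest to its partner, and Psmb9 lies near 1 CPM, with wild-type replicate 1 lowest at 0.47 CPM.

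The alternative activators cap the core in place of the regulatory particle. Psme1 and Psme2 form the interferon-inducible activator ring, and Psme3 and Psme4 form nuclear activators. Psme1 had the highest log2 estimate of all members in homozygotes. It had 19.3, 21.3 and 22.2 CPM in homozygotes, 18.5, 19.7 and 20.7 CPM in heterozygotes and 17.2, 19.7 and 21.2 CPM in wild type (lowest, median and highest). The ranges overlapped, and the change was 0.09 with a standard error of 0.045 in homozygotes against wild type (edgeR adjusted p = 0.315). Psme2, its partner 5.91 kb away on chromosome 14, had a log2 estimate of -0.012. Psme2 counts may include reads of the copy Psme2b-ps, which stood at 2.83 CPM. Psme1 shares exon sequence with Emc9 on the opposite strand.

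Psme4, a nuclear activator known from sperm histone turnover, averaged 65.7 ± 3.45 CPM in homozygotes, 65.6 ± 3.39 CPM in heterozygotes and 62.9 ± 1.98 CPM in wild type (SD, n = 8, 6 and 6). Its log2 change was 0.06 in both comparisons with wild type, with edgeR adjusted p of 0.408 in homozygotes and 1 in heterozygotes. Psme3 had estimates of 0.0063 and -0.021. Psmf1, an inhibitor of the core particle in vitro, averaged 33.0 ± 1.41 CPM in homozygotes, 33.2 ± 1.34 CPM in heterozygotes and 33.0 ± 1.27 CPM in wild type.

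The assembly chaperones help build each particle and leave before it is finished. Of the 4 core chaperones, Psmg3 had the lowest log2 change in homozygotes against heterozygotes, -0.14 (SE 0.076, adjusted p = 0.497 in edgeR). It had 4.74, 5.21 and 6.67 CPM in homozygotes, 5.63, 5.95 and 6.21 CPM in heterozygotes and 4.76, 5.91 and 6.47 CPM in wild type, and all ranges overlapped. Psmg1, Psmg2 and Psmg4 had estimates of 0.0045, -0.016 and -0.023 in homozygotes against wild type. Of the chaperones of the base, Psmd10, also known as the liver oncoprotein gankyrin, had 8.93, 9.83 and 10.7 CPM in homozygotes, 9.30, 9.96 and 10.5 CPM in heterozygotes and 9.05, 9.46 and 10.2 CPM in wild type. Its log2 change was 0.05 in homozygotes and 0.07 in heterozygotes, with adjusted p of 0.598 and 1. Psmd9 averaged 22.7 ± 0.839 CPM in homozygotes, 23.7 ± 0.738 CPM in heterozygotes and 23.4 ± 0.503 CPM in wild type, and Psmd5 had an estimate of -0.0012 in homozygotes.

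Homozygotes set directly against heterozygotes gave 0 calls among 46 members, where 0.108% of all genes were called. At an unadjusted p under 0.05 there were 3 members, where 11% of all genes were. Psma4 was higher in homozygotes by 0.07 (SE 0.031, adjusted p = 0.431 in edgeR), Psme1 by 0.10 (adjusted p = 0.445), and Psmb10 was the third, given above. Psma2 followed with a log2 change of 0.07 (adjusted p = 0.465) and Psmd9 with -0.06 (adjusted p = 0.465). DESeq2 and limma voom called 0 members as well. The medians were 0.0057 in the core particle and 0.0073 in the regulatory particle.

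A fit with the number of Q331K alleles as a single slope also gave 0 calls, where 1.83% of all genes were called, and 3 members under an unadjusted p of 0.05, where 16.8% of all genes were. These were Psme1 at 0.05 per allele (edgeR adjusted p = 0.273), Psmc5 at -0.033 (adjusted p = 0.132) and Psmb10 at -0.06 (adjusted p = 0.15). DESeq2 and limma voom called 0. The Psmc5 means did not follow the number of alleles: they were 132.5 ± 3.36 CPM in homozygotes and 132.4 ± 2.27 CPM in heterozygotes, against 139.1 ± 1.14 CPM in wild type (SD, n = 8, 6 and 6). All 46 per-allele intervals lay inside ±0.2, and the share of all tested genes that did was not computed.

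Genes that work with the proteasome gave 1 call in homozygotes against wild type, where 1.56% of all tested genes were called. Their lists held 9, 3, 13, 6 and 20 tested genes. Of 9 genes of proteasome gene regulation, Maff, a small Maf protein that pairs with Nfe2l1 and related factors on DNA, fell in homozygotes against wild type. It had 0.58, 0.89 and 1.37 CPM in homozygotes, 0.95, 1.14 and 1.60 CPM in heterozygotes and 1.29, 1.42 and 1.63 CPM in wild type (lowest, median and highest). The homozygous and wild-type ranges overlapped in 1 homozygous library, and the heterozygous range overlapped both. The log2 change was -0.71 (SE 0.16, adjusted p = 0.026 in edgeR), and -0.36 per allele (adjusted p = 0.0214). The homozygous call was lost without wild-type replicate 1, 2 or 6, at adjusted p of 0.058, 0.0516 and 0.0529.

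Nfe2l1 itself had 376, 398 and 419 CPM in homozygotes, 394, 404 and 416 CPM in heterozygotes and 418, 421 and 426 CPM in wild type (lowest, median and highest). In TMM-scaled CPM, wild type lay above every heterozygous library and overlapped the top of the homozygous range. In heterozygotes against wild type 0.108% of all tested genes were lower without overlap. With CPM by library totals alone, the wild-type and heterozygous ranges of Nfe2l1 overlapped. The homozygous log2 change was -0.08 with a standard error of 0.026, which edgeR did not call (adjusted p = 0.141) and DESeq2 did (adjusted p = 0.0467). Ddi2, the protease that cuts Nfe2l1 into its active form, had a log2 change of 0.09 (edgeR adjusted p = 0.243), and it overlaps Rsc1a1 on the same strand. Mafg had -0.07 (adjusted p = 0.381) and Ngly1, the enzyme that strips sugars from Nfe2l1, had 0.05 (adjusted p = 0.719).

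In the other lists 0 genes were called in homozygotes against wild type. Of 3 other subunits and assembly factors, the ubiquitin receptor Adrm1, the maturation factor Pomp and the small lid subunit listed as Shfm1 had log2 changes of -0.022, -0.019 and 0.013. Of 13 proteasome-bound enzymes and receptors, the smallest p was that of Ubqln4, a shuttle factor, at -0.06 (edgeR adjusted p = 0.444). Rad23b, another shuttle factor, had 0.05 and the deubiquitinase Uchl5 had -0.04. Among the ubiquitin and activation genes, Rps27a, which encodes ubiquitin fused to a ribosomal protein, had 0.10 (adjusted p = 0.515), and the activating enzymes Uba1 and Uba6 had 0.026 and -0.06.

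Of 20 antigen presentation and interferon genes, 16 had estimates below 0 in homozygotes against wild type, as had 49.4% of all tested genes, with a list median of -0.027, and 0 were called. In heterozygotes against wild type 7 of 20 were below 0, with a list median of 0.04, and 0 were called. Oas1a, an interferon-induced antiviral enzyme, averaged 0.363 ± 0.120 CPM in homozygotes, 0.524 ± 0.149 CPM in heterozygotes and 0.556 ± 0.117 CPM in wild type (SD, n = 8, 6 and 6). Its log2 change in homozygotes was -0.61 (SE 0.22, adjusted p = 0.156 in edgeR). Tap1 had 0.18 (adjusted p = 0.458), B2m, the light chain of the peptide-presenting complex, had -0.10 (adjusted p = 0.502) and H2-D1 had -0.11 (adjusted p = 0.58).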

How the data were processed

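RNA from frontal cortex was measured in 20 libraries. The kit kept strand and selected polyadenylated RNA, per the labels' protocols. The submitters' processing notes name Trim Galore 0.4.3, HISAT2 2.0.5 and GRCm38. How reads were assigned to genes, and whether by strand, is not given in the sources. Only some of the members that overlap other genes are named as such beside their values. The authors deposited 1 table of read counts by gene, as whole numbers without normalisation. All rows stayed in the fit, including 56 without an identifier and 124 with a name used more than once. No 2 libraries of a genotype agreed within sampling noise: chi-square divided by its degrees of freedom was at least 13.0.

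The test was that of edgeR 4.0.16 (R 4.3.3, TMM scaling, filterByExpr, robust quasi-likelihood fit), with all libraries in 1 fit by genotype, or with the number of Q331K alleles (0, 1 or 2) as a slope. CPM used TMM-scaled library sizes. A call needed a p under 0.05 after Benjamini-Hochberg adjustment over the 16690 genes tested, which held all 46 members. Intervals are 95% and cover the spread between libraries. The edgeR test gives no standard error, so it was derived from the log2 change and the F statistic of the test. Intervals were built from it with t quantiles. Exon lengths and overlaps came from GENCODE M21, which held all 46 members. Of these, 11 share exon sequence with a gene on the opposite strand and 3 with one on the same strand. Those not flagged beside their values are Psma4, Psma5, Psmb8, Psmc3, Psmd3, Psmd9 and Psmd13 on the opposite strand. Psmg3 on the same strand is not flagged there either. A marker score averages, over the markers, the z score of log2 CPM (prior count 2). High ependymal score means over 0.5. Alternatives were DESeq2 1.42.0, its size factors, library totals, limma 3.58.1 voom, other filters, the replicate number as a block, fits of 2 genotypes, tissue scores as covariates, and leaving out libraries.

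Members, lists and tests were chosen with earlier results of these data known. Genes were named by rule: Tardbp, called members, the 6 proteolytic subunits, the 3 raised and 3 lowered members of smallest p in each comparison, the highest and lowest level per kb in each particle, the name matches nearest to 1 CPM, and called genes or up to 4 of smallest p in each pathway list. Other members are given by level or log2 change alone. One gene of a pathway list that the rule named is not reported here.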

Additional observations from a re-analysis of the deposited data

Results flagged for a closer look

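In 10 of 213 sets of libraries of 1 genotype (4.69%), the highest or lowest library stood apart from the rest by Dixon's criterion at its 95% critical value. Chance flags about 1 in 20 such sets.

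Among core particle genes, Psmb6 was lowest in homozygous replicate 6 at 64.9 CPM, with the next at 70.0 CPM, and Psmb7 was highest in homozygous replicate 3 at 77.6 CPM, with the next at 72.0 CPM. Among regulatory particle genes, Psmc3 was highest in wild-type replicate 1 at 134.9 CPM (next 128.1), Psmd3 highest in wild-type replicate 6 at 116.9 CPM (next 111.4) and Psmd7 highest in homozygous replicate 6 at 103.1 CPM (next 97.6). The chaperone Psmd9 was lowest in homozygous replicate 8 at 20.8 CPM (next 22.4). The inhibitor Psmf1 was lowest in heterozygous replicate 6 at 30.6 CPM (next 33.3).

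Outside the members, Mafg was lowest in wild-type replicate 4 at 95.8 CPM (next 105.2), Uba1 lowest in homozygous replicate 2 at 340.5 CPM (next 369.2) and Tardbp lowest in heterozygous replicate 4 at 215.1 CPM (next 229.9).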

How the results depend on the processing

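The count of 0 members called held in heterozygotes against wild type, homozygotes against heterozygotes and per allele under every alternative run. In homozygotes against wild type it was 1 with DESeq2 (Psmc5), which called 638 genes there in all. Nfe2l1 also passed there. Tardbp missed the threshold with tissue scores as covariates (log2 change 0.159, and 0.0789 per allele at adjusted p = 0.0515), and Maff without wild-type replicate 1, 2 or 6 (log2 changes -0.685, -0.669 and -0.714). The cause was not tested.

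The regulatory particle median in homozygotes against wild type moved to 0.0203 with library totals alone. The ratio of core to regulatory particle by construction became 0.850, 0.853 and 0.848 in homozygotes, heterozygotes and wild type per kb of exon, and 0.667, 0.667 and 0.664 without the non-ATPase genes of the base.

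Estimates near 0 in homozygotes against wild type changed sign. With library totals alone, Psmb6 was 0.0277, Psmb9 0.016, Psmd11 0.0308, Adrm1 0.0147, Pomp 0.0159 and Ube3c 0.00784. With limma voom, Psmb6 was 0.00205, Psmb7 -0.00164, Psmd11 0.00568 and Adrm1 0.0044. With the high-ependymal libraries left out, Psmb9 was 0.0336, Psmd11 0.0235 and Adrm1 0.00331. With tissue scores as covariates, Psmb9 was 0.0291, Psmd11 0.0269, Adrm1 0.0312 and Pomp 0.0198. With each library left out in turn, Psmb6 ran from -0.0179 to 0.011, Psmb7 from -0.0143 to 0.025, Psmb8 from -0.0511 to 0.0847, Psmb9 from -0.156 to 0.116, Psmd11 from -0.0167 to 0.0157 and Adrm1 from -0.0414 to 0.02. The cause was not tested.

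Over all genes, 261 were called in homozygotes against wild type, 638 with DESeq2 and 104 with tissue scores as covariates. Without wild-type replicate 1, 3, 5 or 6 or homozygous replicate 5 there were 153, 153, 114, 116 and 146. In homozygotes against heterozygotes 18 were called, 103 with DESeq2, 11 with no filter, 6 with the covariates, and 5 to 30 with a library left out. Per allele 306 were called, 696 with DESeq2, 90 with the covariates, 200 with the high-ependymal libraries left out, and 158, 159 and 190 without wild-type replicate 5 or 6 or homozygous replicate 5. In heterozygotes against wild type DESeq2 called 2.

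Over all genes, same-numbered libraries deviated from their genotype means with weak correlation at most. Of 18 pairs of them, correlations ran from -0.104 to 0.139 and 1 passed 0.1. Low and high numbers were not compared in this check. With the replicate number as a block, 0 members were called in every comparison, 387 genes were called in homozygotes against wild type and 383 per allele. Of 18 pairs, 4 correlated best with their own number.

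Counting error alone would give coefficients of variation of 6.95%, 10.7%, 4.55% and 7.1% for Psmb8, Psmb9, Psmg3 and Psmg4. Those observed over the 20 libraries were 13.9%, 20.1%, 10.3% and 12.1%.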

Other observations

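The ratio of core to regulatory particle transcripts followed the replicate numbers of the labels in all 3 genotypes, a pattern seen only after the values were computed and not tested. Libraries numbered 1 to 3 had ratios of 0.509 to 0.528 (9 libraries), and libraries numbered 5 to 8 had 0.488 to 0.501 (8 libraries), with no overlap. Number 4 lay at 0.511 in homozygotes, 0.501 in heterozygotes and 0.496 in wild type. The labels give the numbers no meaning, and each genotype holds libraries of numbers 1 to 6. The check on same-numbered libraries paired identical numbers alone, so it cannot speak to a difference between low and high numbers.

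The immunoproteasome share of proteolytic transcripts lay between 11.87% and 12.97% in homozygotes, between 12.03% and 13.94% in heterozygotes and between 12.71% and 13.44% in wild type. Of 8 homozygous libraries, 6 lay below the lowest wild-type library.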
